A study of Mus musculus with 47 samples.

Results

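The comparison of PLX5622 with control chow at ZT18, the middle of the dark phase, used the 8 cortical libraries that the labels give to that time, out of 47 in the series. They were 4 mice on control chow and 4 on PLX5622, and the other 39 libraries gave the diet effect at ZT2, ZT6, ZT10, ZT14 and ZT22. All animals were male C57BL/6J mice of about 3 months at harvest, kept in light for 12 h and in dark for 12 h, with ZT0 at lights on. The treated mice ate AIN-76A chow with 1200 ppm PLX5622 for 10 days, and the controls ate the chow without the drug for as long. RNA came from the cortex as whole tissue, 1 library per mouse. Per the methods, mice were kept 4 to a cage, and which mice shared one is not given in the sources used here. If cage mates formed a group, cage and group cannot be told apart.

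Microglia are the resident macrophages of the brain and depend for survival on CSF1R, the receptor kinase for the cytokines CSF1 and IL34. PLX5622 blocks that kinase and is used to remove microglia from the living brain, while other CSF1R-dependent cells, such as the macrophages of the meninges and vessels, can be hit as well. Mice are nocturnal, so ZT18 falls in their active phase, when activity-regulated genes such as Arc and Fos are transcribed in cortical neurons. In whole tissue, fewer cells of a type and less RNA per cell cannot be told apart.

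Transcript levels are given as TPM, a measure that corrects for gene length and scales every library to the same total. Fold changes are PLX5622 minus control on log2(TPM + 1), a scale that understates the change of low genes. Of the genes listed, 14580 had a mean of at least 1 TPM and were tested by limma, and a gene was called at a Benjamini-Hochberg adjusted p under 0.05. The same contrasts were run with edgeR on the read counts, which holds 18274 genes. The ZT18 libraries held 16597987 to 20524980 counts in control mice and 21307101 to 24765168 in PLX5622 mice. These ranges did not overlap (exact permutation test, two-sided, p = 0.02857, the smallest that 4 against 4 allows), and the part of depth in the results below was not tested. The share of mitochondrial counts was 8.87% ± 0.874 (SD, n = 4) and 8.78% ± 1.51 (SD, n = 4).

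At ZT18 the diet lowered 113 genes and raised 5. Of all genes tested, 0.775% were called lower and 0.0343% higher. EdgeR called 240 lower (1.31%) and 10 higher (0.0547%). Microglial genes made up the largest listed group, with 30 of 31 tested members called lower, and C4b, a complement gene, was the only gene called higher by both tools. No gene had a diet effect at ZT18 that differed from the mean effect at the other 5 times after adjustment, 0% by limma and 0% by edgeR. At an unadjusted p under 0.05 the difference was below 0 in 96 genes (0.658%) and above 0 in 243 (1.67%) by limma, and edgeR gave 613 genes in either direction. The median loss of microglial transcripts was the smallest of the 6 times by limma, though not by edgeR, and the median of the immediate early genes was the lowest of the 6 times by both tools, but with all mice and these group means no member of either list differed from the other times after adjustment.

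Csf1r (ENSMUSG00000024621), the target of the drug, was measured first as a check of the labels. Its level was 34.3, 56.6, 37.0 and 41.9 TPM in the control mice and 6.09, 4.07, 3.50 and 10.1 TPM in the PLX5622 mice. Every control mouse lay above every treated mouse, and the treated mean was 14% of the control mean, 5.94 ± 2.99 against 42.4 ± 9.93 TPM (SD, n = 4 each). The log2 fold change was -2.71 (SE 0.434, limma adjusted p = 5.5e-05). At the other times its mean was -3.72, a difference of 1.0 with an unadjusted p of 0.0416. By edgeR that difference had an unadjusted p of 0.186.

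Transcripts of the surface proteins of homeostatic microglia were lower in every treated mouse. P2ry12, the ADP receptor that steers microglial processes, was at 33.0, 37.1, 33.4 and 35.2 TPM in control mice and at 5.33, 2.75, 4.75 and 4.62 TPM in PLX5622 mice. It fell by 2.76 on the log2 scale (SE 0.321, limma adjusted p = 1.29e-07). Tmem119, a membrane protein used as a microglial marker, fell from 17.7 ± 3.36 to 2.47 ± 0.626 TPM (SD, n = 4 each), with a log2 fold change of -2.43. Cx3cr1, the fractalkine receptor, changed by -2.56, Siglech by -2.64, Selplg by -2.58, Gpr34 by -2.22 and P2ry13 by -2.28. Trem2, a lipid-sensing receptor, and its signalling adaptor Tyrobp changed by -2.31 and -2.78.

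Genes for secreted and lysosomal products of microglia were lower too. The log2 falls of the C1q genes and Ctss were larger than those of the surface genes above, on a scale that understates the change of low genes. The 3 genes of complement C1q, which tags synapses and debris for removal, changed by -2.88 (C1qa), -2.92 (C1qb) and -2.88 (C1qc). C1qa was at 81.1, 105, 83.8 and 90.6 TPM in control mice and at 13.1, 7.59, 11.9 and 13.4 TPM in treated mice, so the groups lay far apart and the mean left was 12.8% of control. Ctss, a lysosomal cysteine protease, was at 81.3, 94.6, 80.4 and 85.4 TPM in control mice and at 10.8, 8.42, 9.19 and 14.04 TPM in treated mice, a log2 fold change of -2.92 (SE 0.404, limma adjusted p = 3.99e-06). Fcer1g, the shared chain of Fc receptors, and Laptm5, a lysosomal membrane protein of leukocytes, changed by -2.80 and -2.62.

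**Figure D1:**
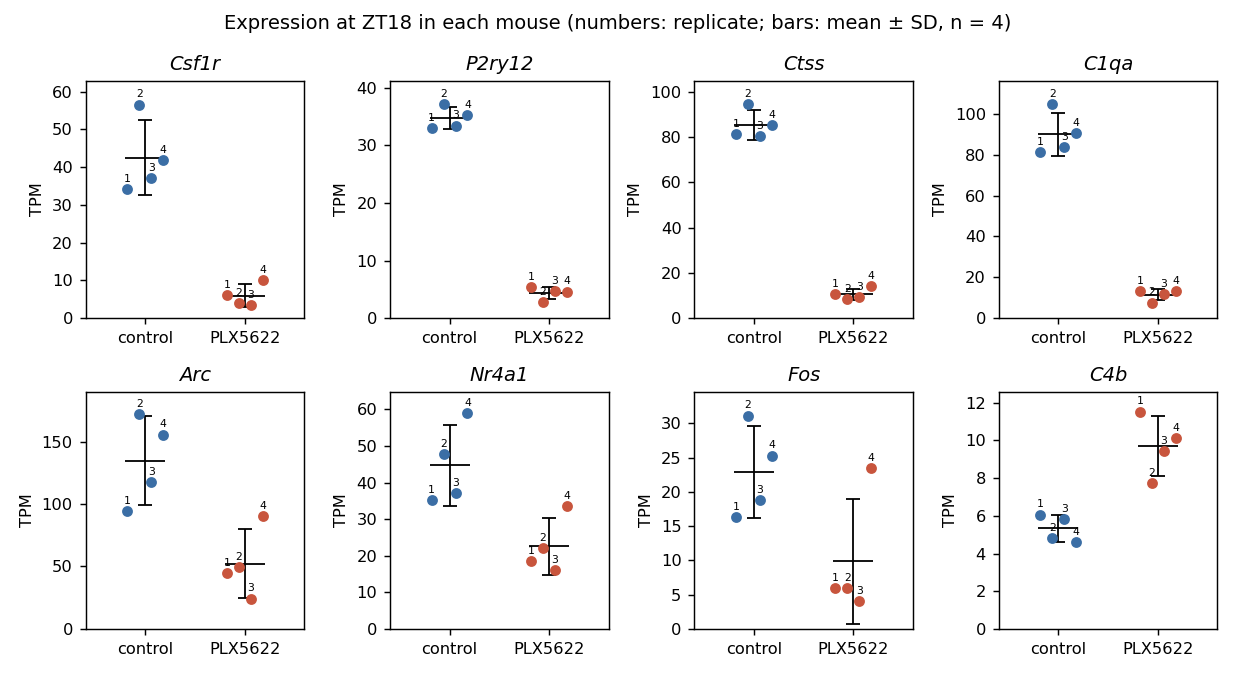
TPM of 8 genes in each of the 8 mice at ZT18, control and PLX5622 side by side; numbers are the replicate numbers of the labels, and bars are the mean with the SD (n = 4). Csf1r, P2ry12, Ctss and C1qa are separated without overlap, C4b is higher in every treated mouse, and in Fos the PLX5622 mouse with number 4 (23.4 TPM) lies among the controls.

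Among the transcription factors of microglia the falls were smaller. Spi1, which encodes PU.1, the master regulator of macrophage identity, fell by 1.90 on the log2 scale, Irf8 by 0.98, and Ikzf1, a lymphoid and myeloid factor, by 0.64. Sall1, a factor of microglial identity that other brain cells also transcribe, was at 7.17 ± 1.08 and 4.42 ± 0.604 TPM (SD, n = 4 each) and fell by 0.59 (limma adjusted p = 0.0181). Ikzf1 and Sall1 lost their calls when single libraries were left out. Tgfbr1 and Slco2b1, which other cells of the cortex express too, kept 46.3% and 46.8% of their control means.

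Of the 32 microglial markers, 31 were tested and the groups did not overlap in any of them, against 1.91% of all genes that were lower without overlap. The member that missed the threshold was Inpp5d, a lipid phosphatase, at -1.01 (limma adjusted p = 0.132), which edgeR called lower (adjusted p = 5.6e-09). Ptprc, the remaining member, averaged 0.913 TPM in control and 0.268 TPM in treated mice and stood under the filter. EdgeR, which tested it, called it lower (adjusted p = 0.000214). The median log2 fold change of the 31 was -2.28, beside 0.04 over all genes tested.

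The promoters of several of the most reduced genes are printed to show the letters GAGGAA (or TTCCTC on the other strand), the core that PU.1 binds. The sequences are RefSeq's, build GRCm38.p6, from 250 bases before to 30 bases after the annotated start, written 5′ to 3′ on the gene's strand with the match in capitals. C1qb lies at chr4:136886171-136886450 (minus strand), Ctss at chr3:95526536-95526815 (plus strand) and C1qc at chr4:136892885-136893164 (minus strand).
C1qb: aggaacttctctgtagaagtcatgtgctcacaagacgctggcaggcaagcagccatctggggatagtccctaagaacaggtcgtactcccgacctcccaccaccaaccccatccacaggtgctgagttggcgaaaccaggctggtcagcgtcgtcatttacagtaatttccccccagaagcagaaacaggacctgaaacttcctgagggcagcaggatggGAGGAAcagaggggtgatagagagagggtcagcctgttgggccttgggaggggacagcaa
Ctss: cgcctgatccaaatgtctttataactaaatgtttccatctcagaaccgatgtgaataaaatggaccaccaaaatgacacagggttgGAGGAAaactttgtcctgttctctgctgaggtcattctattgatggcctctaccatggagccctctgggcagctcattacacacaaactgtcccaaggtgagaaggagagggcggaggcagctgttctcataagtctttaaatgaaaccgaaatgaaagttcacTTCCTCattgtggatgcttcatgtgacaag
C1qc: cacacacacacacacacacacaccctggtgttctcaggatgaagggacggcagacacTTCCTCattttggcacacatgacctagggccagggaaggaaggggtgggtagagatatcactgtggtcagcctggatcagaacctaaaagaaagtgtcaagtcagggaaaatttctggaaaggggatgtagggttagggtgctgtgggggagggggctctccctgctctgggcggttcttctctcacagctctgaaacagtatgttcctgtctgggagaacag
The matches began at position -30 in C1qb, at -164 and 1 in Ctss and at -193 in C1qc, and the window of Fcer1g held none. Promoters of 24 of the 32 markers were found in the table, and 17 of these genes had a match. By window of 300 bases, 62.5% of those 32 windows held the letters, some of them overlapping windows of 1 gene, beside 28.3% of 32851 windows of all genes. A match is a string of letters and not a measured binding site.

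The loss of microglial transcripts was smaller at ZT18 than the mean of the other times for most markers, though no marker was called after adjustment. The median of the 31 genes was -2.28 at ZT18 and -3.04, -2.50, -2.93, -2.99 and -2.55 at ZT2, ZT6, ZT10, ZT14 and ZT22. For 28 of the 31 the change at ZT18 was nearer 0 than the mean of the other times, while of all genes 45.8% had a difference below 0. At an unadjusted p under 0.05 this difference held for 11 members, C1qa, P2ry12, Csf1r, Selplg, Fcrls, Trem2, Gpr34, Itgam, Ly86, Olfml3 and Irf8, beside 1.67% of all genes in that direction, and for none after adjustment. The order of the times depended on the tool. By edgeR on counts the medians were -4.06, -2.88, -3.45, -3.52, -2.90 and -3.12 from ZT2 to ZT22, which puts ZT6 and ZT18 side by side.

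The levels behind that difference were read in each diet. The summed level of the 31 markers was 862 TPM in control mice at ZT18, the lowest of the 6 times, where the other control means ran from 947 to 1055 TPM. In PLX5622 mice the sum was 137 TPM at ZT18, beside 83.3 to 136 TPM at the other times. The share left was therefore 15.8% of the control mean at ZT18, with single treated mice from 11.4% to 19.2%. At ZT6 it was 14.4% (8.85% to 19.3%), so these neighbours overlap, and at ZT2 it was lowest at 8.41% (4.58% to 12.5%). In control mice all 31 markers were lower at ZT18 than the mean of the other times, with a median difference of -0.22, but all genes tested had a median of -0.08 in that contrast and 9.77% of them were lower at an unadjusted p under 0.05, so the 3 of the 31 that reached this p were no more than the share over all genes. In PLX5622 mice 24 of the 31 were higher at ZT18, with a median of 0.31, where all genes had -0.07. Of these, 5 were higher at an unadjusted p under 0.05, as were 0.912% of all genes.

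**Figure D2:**
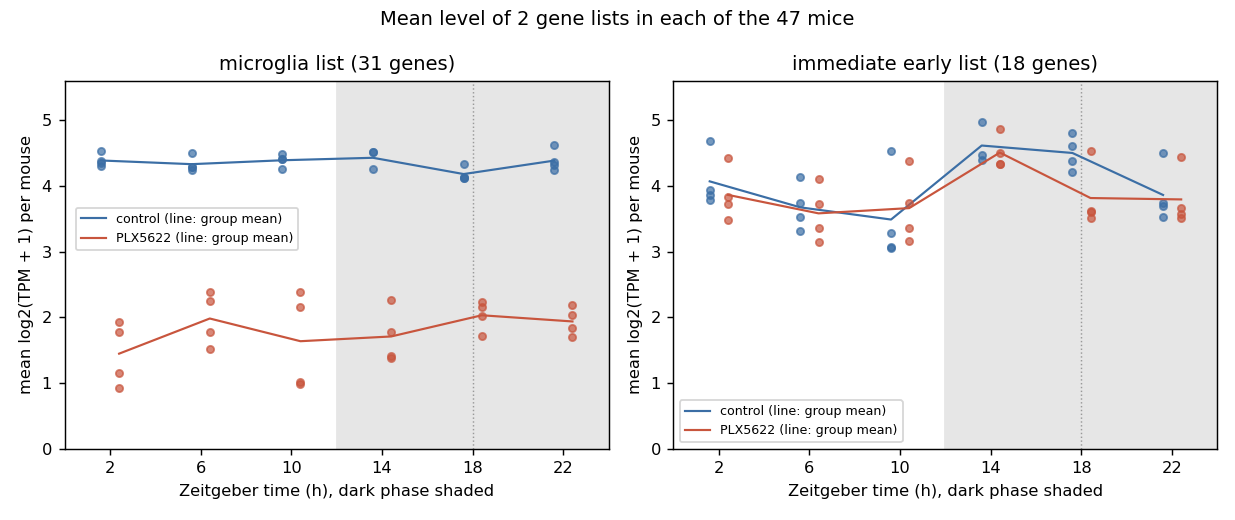
Mean log2(TPM + 1) of the 31 microglial markers and of the 18 immediate early genes in each of the 47 mice by Zeitgeber time in hours, control and PLX5622; points are mice, lines join the group means, and shading marks the dark phase. The microglial list is far lower in every treated mouse at every time, and the immediate early list shows its widest gap between diets at ZT18.

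Transcripts of macrophages at the borders of the brain could be measured in part. Only 3 of 10 border macrophage markers passed the filter. Pf4, a platelet and macrophage chemokine, was at 4.50, 4.53, 3.50 and 4.00 TPM in control mice and at 0.930, 0, 0.298 and 0.821 TPM in treated mice, a log2 fold change of -1.81. Stab1, a scavenger receptor, changed by -1.63. Cbr2 was not called at -0.45, beside -1.24 at the other times. Mrc1, the mannose receptor, stood under the filter at 0.847 and 0.0959 TPM, and edgeR called it lower on counts (-3.19, adjusted p = 1.8e-08). Of the other 6 markers under the filter, edgeR called F13a1 (-2.91) and Ms4a7 (-3.48) lower. It did not call Lyve1 (-2.14), Cd163 (-0.62), Siglec1 (-1.89) or Clec10a (-0.17), and Clec10a was at 0.565 TPM in control and 0.641 TPM in treated mice.

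Of 16 tested genes for lysosomes and disease-associated microglia, 2 were called lower, Cd68, a lysosomal glycoprotein of phagocytes (-1.11), and Lyz2, the lysozyme of myeloid cells (-1.21). EdgeR called 5 of them lower, where 1.31% of all genes were called lower by that tool. Those 5 included Ctsd and Grn, lysosomal proteins that many brain cells make, at limma changes of -0.41 and -0.35 (adjusted p = 0.155 and 0.716). Apoe, which astrocytes transcribe at a high level, was at 4897 TPM in control and 4892 TPM in treated mice. The ligands of the receptor, Il34 and Csf1, were at 0.08 and 0.15 (SE 0.183 and 0.106) and neither was called.

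Beyond the lists, 79 further genes were called lower at ZT18, and most of those named here, chosen after their values were seen, are genes of myeloid cells. Examples are Crybb1, a crystallin found in young microglia (-2.36), Mpeg1, the pore former perforin-2 of macrophages (-1.96), Unc93b1, which carries nucleic acid sensing Toll-like receptors (-1.54), Cd33, a sialic acid receptor (-1.49), Itgb2, the integrin chain that pairs with Itgam (-1.14), Irf5 (-1.14), the high-affinity Fc receptor Fcgr1 (-1.09) and the cytokine Tgfb1 (-1.01). Ptpn18, a phosphatase, had the largest fall among these genes with a known product (-2.40). Its control level was uneven, at 9.31, 9.94, 8.35 and 1.31 TPM, and the control mouse with number 4 was close to the treated mice at 0.176, 0.136, 0.229 and 0.921 TPM. Gm38843, a predicted gene at 1.89 to 9.20 TPM in control mice and listed at 0 in treated mice, was called by limma only (-2.42, adjusted p = 0.0177). It rested on 2, 4, 6 and 10 counts in control mice and 0, 0, 0 and 1 in treated mice (edgeR adjusted p = 0.0789).

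The genes lowered at ZT18 were nearly all lowered at other times too. Of the 113, 97 were called lower at each of the other 5 times and 112 at 1 or more, and the libraries of those times are different mice. For 99 of the 113 the mean change at the other times lay further from 0. Of the 118 genes called in either direction at ZT18, 93.2% were also called at ZT22, which is 58.2% of the 189 called there, and 87.3% were also called at ZT14, 78.0% of its 132. The number of calls itself was lowest at ZT18, at 118 (0.809%), where ZT2, ZT6, ZT10, ZT14 and ZT22 gave 188 (1.29%), 147 (1.01%), 156 (1.07%), 132 (0.905%) and 189 (1.3%). On counts edgeR called 250 genes at ZT18 and 271 to 380 at the other times, so the low rank held with both tools.

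**Figure D3:**
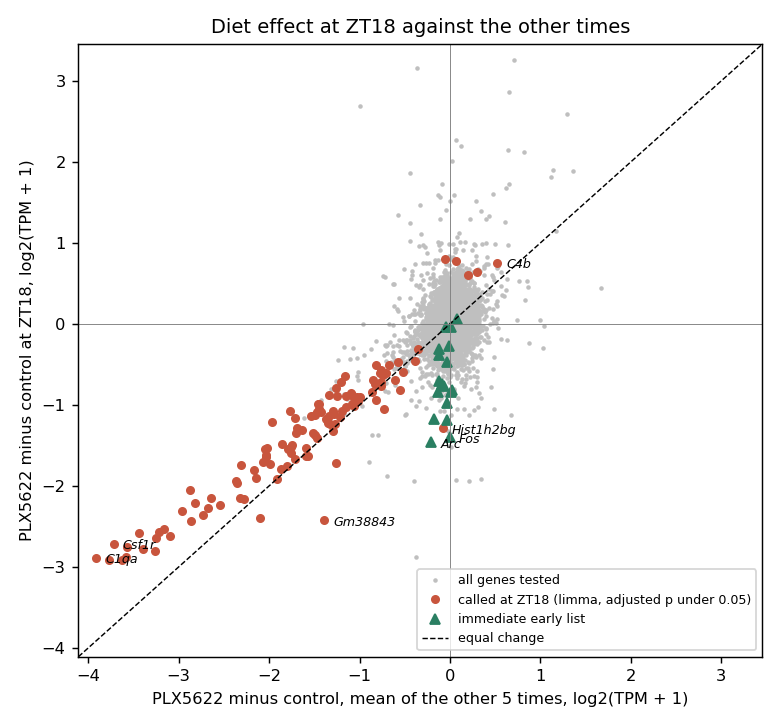
Diet effect at ZT18 (y axis) against the mean diet effect at the other 5 times (x axis), both PLX5622 minus control in log2(TPM + 1), 1 point per gene; coloured points are the genes called at ZT18, triangles the immediate early genes, and the dashed line marks equality. Most of the 113 lowered genes lie on the side of the larger loss at the other times, and 17 of 18 immediate early genes are below 0 at ZT18 while their other-times mean stays near 0.

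Among genes called at ZT18, those with the smallest p for a difference from the other times were Gprc5c (unadjusted p = 0.000414), Hist1h2bg (0.000837) and Spata5, which are described below. After them came 6 myeloid genes with a smaller fall at ZT18, and then Ndufc1. Itgam, the alpha chain of complement receptor CR3, changed by -2.15 at ZT18 and by -2.65 at the other times (unadjusted p = 0.00954). Lyz2 changed by -1.21 and -1.96, Arhgap45 by -1.06 and -1.45, Vav1, a signalling factor of blood cells, by -0.99 and -1.45, Ikzf1 by -0.64 and -1.16, and Irf8 by -0.98 and -1.46. All of these differences had adjusted p-values near 1, the smallest over all genes being 0.99986.

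Hist1h2bg, a histone gene, was the only lowered gene called at no other time. It was at 2.79, 2.86, 1.71 and 2.60 TPM in control mice and at 0.376, 0.142, 0.763 and 0.434 TPM in treated mice (-1.29, limma adjusted p = 0.0189), with a mean of -0.08 at the other times. The counts did not show this. They were 21, 12, 7 and 13 in control mice and 12, 11, 9 and 13 in treated mice (edgeR -0.54, adjusted p = 0.875). The reason for the mismatch between the tables was not tested.

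C4b (ENSMUSG00000073418, chr17:34728380-34743882, minus strand), which encodes a C4 protein of the complement cascade and is expressed by glia, was higher in every treated mouse. It was at 6.07, 4.83, 5.83 and 4.60 TPM in control mice and at 11.5, 7.72, 9.44 and 10.1 TPM in treated mice, a mean of 182% of control. The change was 0.75 by limma (SE 0.144, adjusted p = 0.00118) and 0.79 by edgeR (adjusted p = 0.000883). It was not particular to ZT18. At the other times it was 0.45, 0.61, 0.36, 0.87 and 0.33 from ZT2 to ZT22, with calls at ZT6 and ZT14, and the difference from their mean was 0.23 (unadjusted p = 0.159).

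The other 4 genes called higher were called on TPM and not on counts. Ndufab1, the acyl carrier protein of mitochondria, was at 136, 119, 131 and 125 TPM in control mice and at 186, 227, 218 and 170 TPM in treated mice (0.64, limma adjusted p = 0.00741). Its counts were 1488, 1110, 1176 and 1312 against 1417, 1703, 1496 and 1247, and with the deeper libraries of the treated mice taken into account edgeR gave -0.13. Ndufc1, a subunit of respiratory complex I, had 0.61 by limma and 0.02 by edgeR. Gprc5c, an orphan receptor, was at 1.51, 1.19, 1.19 and 1.503 TPM against 3.93, 3.23, 2.10 and 3.32 TPM (0.80, limma adjusted p = 0.0362), with -0.05 at the other times, and edgeR gave 0.38 (adjusted p = 0.693). Spata5 had 0.78 by limma and 0.32 by edgeR. Why the tables differ for these genes was not tested. The count of genes called higher by limma was 9 without the treated mouse with number 3 and 3 without the treated mouse with number 2, so it rests on single libraries.

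Immediate early genes are switched on within minutes of neuronal activity without new protein synthesis, and they encode transcription factors such as Fos, Junb, Egr2 and Nr4a1 and the synaptic protein Arc. At ZT18 their levels were lower with PLX5622 in most mice, and by limma this was the list whose median stood furthest from its value at the other times. The median of the 18 genes was -0.75 at ZT18, beside -0.04 for the mean of the other times and -0.16, -0.08, 0.15, -0.11 and -0.06 at each of them. With the 12 group means as the only terms, limma called no member and edgeR called 1, Nr4a1. At an unadjusted p under 0.05, 10 of 18 were lower at ZT18, where 2.61% of all genes were, and 5 had a difference from the other times below 0, where 0.658% of all genes did.

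Arc (ENSMUSG00000022602), which moves to active synapses, was at 94.3, 172, 118 and 156 TPM in control mice and at 44.9, 49.3, 24.2 and 90.2 TPM in treated mice. The groups did not overlap, but the highest treated mouse came close to the lowest control, and the change of -1.46 (SE 0.486) had an adjusted p of 0.324 by limma and 0.181 by edgeR. Nr4a1, an orphan nuclear receptor, was at 35.1, 47.7, 37.1 and 59.0 TPM against 18.6, 22.05, 15.99 and 33.7 TPM. Its change was -0.98 by limma (SE 0.310, adjusted p = 0.244) and -1.05 by edgeR (adjusted p = 0.0227). The difference from the other times was -0.94, with an unadjusted p of 0.00856 by limma and 0.00179 by edgeR. The edgeR call was lost without the control mouse with number 2 or 4 or the treated mouse with number 1 or 3 (adjusted p from 0.0517 to 0.136).

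Egr2, a zinc finger factor, was the third member without overlap, at 2.57, 4.68, 3.03 and 4.91 TPM in control mice and 0.875, 0.927, 0.648 and 2.06 TPM in treated mice (-1.18, limma adjusted p = 0.414). Lower values without overlap were seen in 1.91% of all genes and in 3 of these 18. Fos was at 16.4, 31.1, 18.8 and 25.3 TPM in control mice and at 6.00, 5.95, 4.06 and 23.4 TPM in treated mice. Junb, a partner of Fos in AP-1, was at 43.2, 72.9, 48.7 and 74.1 TPM against 18.8, 21.7, 16.8 and 58.1 TPM. In both genes 3 treated mice lay below all controls and the treated mouse with number 4 lay within the control range, and the changes of -1.40 and -1.17 were not called. That treated mouse also had the lowest mitochondrial share of its group, 6.72% of counts beside 8.58% to 10.0%, and the highest mean of the neuronal list, 8.30 on log2(TPM + 1) beside 7.77 to 7.88. The control mouse with number 2, the highest control for Fos and Arc, likewise had the lowest mitochondrial share, 7.59% beside 9.15% to 9.54%, and the highest neuronal mean, 8.27 beside 7.86 to 8.05. With the mitochondrial share as a covariate in limma, all 43 named genes called at ZT18 stayed called. The 92 not called, Arc, Fos, Egr2 and Junb among them, stayed uncalled. A gene uncalled in both fits does not show how the covariate moved its change. The part of these measures in the immediate early result was therefore not tested. Nr4a2, Nr4a3 and Homer1 were at -0.04, -0.04 and 0.06.

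The letters TGACG, or CGTCA on the other strand, are the core of the cAMP response element through which activity signals reach these genes. They are shown in the promoters of Fos, chr12:85473640-85473919 (plus strand), and Nr4a1, chr15:101266596-101266875 (plus strand), as RefSeq gives them in GRCm38.p6, written as above.
Fos: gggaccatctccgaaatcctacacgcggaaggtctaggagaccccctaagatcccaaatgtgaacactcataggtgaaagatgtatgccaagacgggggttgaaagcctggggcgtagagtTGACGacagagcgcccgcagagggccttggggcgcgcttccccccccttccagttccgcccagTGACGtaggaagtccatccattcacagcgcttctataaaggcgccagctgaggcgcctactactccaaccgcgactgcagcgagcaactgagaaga
Nr4a1: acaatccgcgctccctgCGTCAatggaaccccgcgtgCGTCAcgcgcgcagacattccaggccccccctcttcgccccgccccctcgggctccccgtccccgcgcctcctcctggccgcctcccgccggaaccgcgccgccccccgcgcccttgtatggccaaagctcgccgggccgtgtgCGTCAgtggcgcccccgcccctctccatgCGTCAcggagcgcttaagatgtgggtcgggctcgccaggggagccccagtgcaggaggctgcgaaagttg
The matches began at -129 and -66 in Fos and at -233, -213, -69 and -40 in Nr4a1. Of the 18 genes 14 were found in the promoter table and 12 had a match, 73.7% of their 19 windows beside 20.8% of the windows of all genes.

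Which diet set the gap between the diets in this list depended on the time taken for comparison. In control mice 17 of the 18 genes were higher at ZT18 than at the mean of the other times, with a median of 0.60, and 11 of them at an unadjusted p under 0.05, where 0.727% of all genes were higher. In PLX5622 mice the median of that contrast was -0.09. The summed level of the 18 genes was 656 TPM in control mice at ZT18 and 411 TPM in PLX5622 mice, 62.6% of control, with single treated mice from 50.4% to 95.6%. At the other times the treated sum was between 84.5% and 108% of control. At ZT14 both diets were high, at 763 TPM in control (n = 3) and 674 TPM in PLX5622 mice. From ZT14 to ZT18 the list mean on log2(TPM + 1) went from 4.62 to 4.50 in control mice. In PLX5622 mice it went from 4.51 to 3.82. The difference between those 2 times was not tested. The control group at ZT14 had no mouse with number 4, a number that stood high in this list as described below. The PLX5622 mouse with number 4 at ZT14 was at 4.87, and the others there were at 4.34 to 4.50. The diets at ZT14 are thus compared on unlike sets of mice, and the other times include ZT14.

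Mice with the number 4 stood apart in this list. Their mean over the 18 genes was the highest of their group in 10 of the 11 groups with 4 libraries. The exception was the control group at ZT18, at 4.22, 4.81, 4.38 and 4.61 on log2(TPM + 1), where number 2 was highest. The treated mice at ZT18 were at 3.60, 3.63, 3.52 and 4.53. The labels do not say what the number marks. With the number as an added term (replicate block) in all mice, limma called 7 of the 18 genes lower, with a median of -0.75, and edgeR called 12. Those fits called 123 of 14580 genes lower by limma and 263 of 18274 by edgeR. Over all genes tested, the numbers did not pair the diets at ZT18, as given below. That measure does not describe this list alone. Within the list the block lowered the limma SE of every member, from 0.472 to 0.227 for Junb and from 0.121 to 0.119 for Fosl2. When number 4 was left out of every group, a choice made after this pattern was seen and on the same values, the median at ZT18 was -0.99, and 10 of the 18 genes were called lower by limma, beside 0.809% of all genes tested in that fit. These were Arc (-1.69), Fos (-1.83), Egr2 (-1.26), Junb (-1.45), Nr4a1 (-1.04), Btg2 (-1.22), Egr4 (-1.04), Dusp1 (-1.01), Ier2 (-0.97) and Npas4 (-1.08). EdgeR called 12, adding Egr1 and Fosb, beside 1.13% of all genes. For 13 of the 18 the difference from the other times was then under an unadjusted p of 0.05 by limma, beside 2.87% of all genes. With only the treated mouse number 4 left out, the median was -1.03 and limma called none of the 18.

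In the same fits without number 4, a few genes also differed between ZT18 and the other times after adjustment. The choice to leave number 4 out was made on the same values, and the adjusted p-values below do not allow for it. With all mice and group means alone, neither tool called any gene in this contrast. EdgeR called 4 genes of 18100 (0.0221%) and limma 1 of 14579 (0.00686%). Ccn1, a matrix protein gene that is itself induced rapidly by growth signals and was on no list, was the gene called by both, with a difference of -1.20 by limma (adjusted p = 0.0137) and -1.47 by edgeR (adjusted p = 0.00194). The other genes called by edgeR were Btg2, an antiproliferative factor (-1.35, adjusted p = 0.00193), Junb (-1.28, adjusted p = 0.0044) and Dusp1, a phosphatase that turns off MAP kinases (-1.04, adjusted p = 0.00554). Ccn1 was at 6.16, 8.01, 6.28 and 8.32 TPM in control mice and at 3.22, 2.38, 2.16 and 6.80 TPM in treated mice. With all mice and group means alone its change at ZT18 was -0.91 (limma adjusted p = 0.468), beside -0.00, 0.02, 0.03, 0.38 and 0.01 from ZT2 to ZT22.

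The genes with the smallest p for ZT18 against the other times in all mice formed no list fixed here, and all had an adjusted p of 0.99986 by limma. AW822252 (ENSMUSG00000085998) was at 1.28, 1.27, 0.814 and 1.23 TPM in control mice and at 3.42, 3.03, 2.77 and 3.33 TPM in treated mice, 273% of control. Its change was 0.95 at ZT18 and -0.27 at the other times (unadjusted p = 0.000125), and in control mice ZT18 differed from the other times by -1.10. Slc6a12, a betaine and GABA transporter, had 0.55 against -0.43 at a level of 0.493 and 1.22 TPM. Gsdmd, the pore former of pyroptosis, had 0.57 against -0.72, but edgeR gave -0.34 at ZT18. Tgtp1, an interferon-induced GTPase, had 0.49 against -0.07 and Kctd18 had 0.47 against -0.02. Lower at ZT18 than elsewhere were Prdm16 (-0.55 against 0.25), Gm14327 (-0.43 against 0.10) and Oxld1 (-0.46 against 0.07).

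The other cell types of the cortex showed little at ZT18. No marker of astrocytes, oligodendrocytes, their precursors, neurons, interneurons, endothelial or mural cells was called, 12, 12, 12, 12, 12, 12 and 10 genes tested in turn. Gfap, the filament protein of astrocytes, was higher in every treated mouse, at 147, 109, 110 and 102 TPM against 210, 168, 209 and 180 TPM, with a change of 0.72 (SE 0.215, limma adjusted p = 0.176) beside 0.53 at the other times. All 12 astrocyte markers had a change above that of the other times, where 45.8% of all genes had one below. Against the other times, the list median at ZT18 was -0.15 in control mice and -0.03 in PLX5622 mice. Over all genes these were -0.08 and -0.07. The list medians of the diet effect were 0.08 at ZT18 and -0.02 at the other times. For neurons the medians were -0.05 and 0.03 and for oligodendrocytes 0.22 and 0.14, beside 0.04 and 0.03 over all genes.

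Markers of vessels and meninges were slightly above control at ZT18 in most cases, and none was called. Endothelial and mural markers both had medians of 0.16 at ZT18, beside 0.01 and -0.01 at the other times. Cldn5, the tight junction protein of brain endothelium, was at 51.7, 58.7, 50.5 and 47.3 TPM against 62.8, 59.7, 64.3 and 66.4 TPM, without overlap, and 1.15% of all genes were higher without overlap. Its change of 0.28 was not called (limma adjusted p = 0.638), and it was 0.36 above the other times at an unadjusted p of 0.00533. The 8 markers of meninges and fibroblasts had a median of 0.36 beside 0.00. In control mice these lists were lower at ZT18 than at the other times. The medians were -0.44 (meninges and fibroblasts), -0.25 (mural) and -0.16 (endothelial), beside -0.08 over all genes. In PLX5622 mice the same contrast gave -0.11, -0.11 and -0.04, beside -0.07 over all genes. How much of these markers entered each dissection is measured by those values alone, and their part in other results was not tested. Choroid plexus RNA differed widely between mice of a group, with Ttr at 232, 140, 1159 and 337 TPM in control mice.

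Genes of interest to the study's question of rhythms and matrix were not called at ZT18. None of the 19 clock genes was called, and their median was 0.02, beside 0.00 at the other times. The largest changes among them were -0.30 for Nfil3 and 0.27 for Per2 (SE 0.150 and 0.209). Of 11 perineuronal net genes 7 were tested, with a median of 0.08 and none called, and Acan, the aggrecan core protein, stood under the filter at 0.417 and 0.5004 TPM. MHC genes had a median of -0.20 beside -0.44. All 11 had a change above that of the other times, where 45.8% of all genes had one below. Cd74, the invariant chain, was at -0.69 against -1.02. Against the other times, the MHC median at ZT18 was -0.37 in control mice and -0.02 in PLX5622 mice. Interferon genes had 0.09 beside -0.04, heat shock genes 0.06 beside 0.03 and glucocorticoid responsive genes -0.06 beside -0.02, with no call in any of them.

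**Figure D4:**
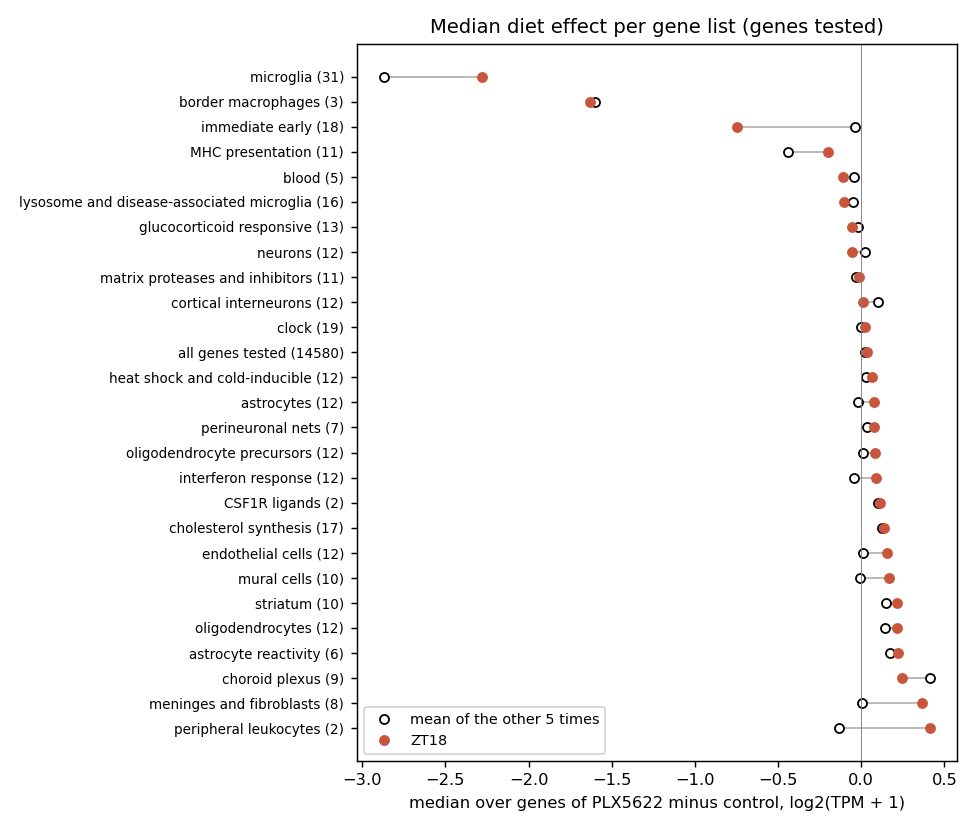
Median diet effect of each gene list, PLX5622 minus control in log2(TPM + 1), at ZT18 (filled) and as the mean of the other 5 times (open). The microglial and border macrophage lists stand lowest at both, and the immediate early list has the widest gap between its value at ZT18 (-0.75) and at the other times (-0.04).

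For a gene with a typical spread, the 95% interval of the difference between ZT18 and the other times reached 0.324 log2 units to either side. The replicates are separate mice, though which of them shared a cage is not known. Libraries of a group differed by more than counting error, with a chi-square per degree of freedom of 8.75 to 34.2 over the 12 pairs at ZT18.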

How the data were processed

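Cortical RNA from 47 mice was sequenced, 1 library per mouse, in 12 groups of diet by Zeitgeber time, with 3 mice in the control group at ZT14 and 4 in the others. Groups were taken from the labels. Per the methods, the authors aligned reads to GRCm38.p6 (STAR) and quantified Gencode genes with Salmon. The deposited TPM values cover 54281 genes. A further table, named for FPKM, holds whole numbers for 54532 genes, and the values the authors deposited there were used as raw counts. The labels name STAR, featureCounts, edgeR and limma for the series. Counts summed to 16597987 to 27626161 per library.

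The main test was limma 3.58.1 (R 4.3.3) on log2(TPM + 1), with 12 group means that share 1 estimate of spread (35 residual degrees of freedom), genes at a mean of 1 TPM or more, and Benjamini-Hochberg adjustment over all genes tested at 0.05. The contrasts were the diet effect at ZT18, and that effect minus the mean diet effect at the other 5 times. The study's own models had cosine and sine terms for time. An alternative fit used such terms with added terms for ZT18 and for the diet at ZT18, so it was not the study's model. Counts were tested with edgeR 4.0.16 (quasi-likelihood, TMM, filterByExpr) and DESeq2 1.42.0. Library measures were compared with an exact permutation test. On simulated counts of 14177 genes, limma recovered 86% of 100 seeded changes of log2 size 1 at ZT18. It recovered 81% of them in the difference from the other times. These counts were drawn independently per gene and library, with no effect of diet, time or replicate number beyond the seeded changes. A further 100 seeded changes were of log2 size 2. The shares hold for that simulation and do not give the power in these mice.

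Symbols and positions came from GENCODE release M21, where 99.68% of TPM and 99.77% of count identifiers were found. Genes named in the text are Csf1r, the 10 lowest and 10 highest of those called, the 10 with the smallest p against the other times among called genes and among all genes, and in each list the called members or up to 4 with the largest change. Others are named as chosen after their values were seen, or because a fit without replicate 4 called them. The gene lists and the comparison were chosen with earlier results of these data known. The fit without replicate 4 of each group was added after seeing the data. Some genes that were tested and counted are not reported here.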

Additional observations from a re-analysis of the deposited data

Results flagged for a closer look

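Within groups of 4 at ZT18, 16 of 328 groups of values examined held a mouse whose gap to its neighbour was above Dixon's 95% critical value, where chance gives 16.4, and 15 of them are given here. The PLX5622 mouse with number 4 had Fos at 23.4 TPM (the others 4.06 to 6.00), Junb at 58.1 TPM (16.8 to 21.7) and Dnajb1, a heat shock cochaperone, at 33.0 TPM (21.3 to 22.7), and the mean of the immediate early list was 4.53 in that mouse on log2(TPM + 1) (3.52 to 3.63).

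The control mouse with number 2 had the highest mean of the microglial list, 4.33 on log2(TPM + 1) (the others 4.13 to 4.14), and the highest Olfml3 at 7.06 TPM (5.05 to 5.25) and S100a9 at 5.82 TPM (1.52 to 2.21), with Gm14327 at 5.94 TPM (7.24 to 7.47). In the control mouse with number 3, Kl, a choroid plexus gene, was at 7.11 TPM (1.95 to 2.30), AW822252 at 0.814 TPM (1.23 to 1.28) and Slc6a12 at 0.0858 TPM (0.592 to 0.668). Mal was at 105 TPM in the control mouse with number 1 (120 to 121). Among treated mice, Hapln2 was at 28.6 TPM in number 1 (13.8 to 15.4), S100a8 at 12.3 TPM in number 2 (2.20 to 2.79) and Slc1a3 at 282 TPM in number 3 (308 to 312).

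AW822252 moved in opposite directions with the diet at ZT18 and ZT14, with log2 fold changes of 0.95 and -0.55. Every treated mouse lay above every control mouse at ZT18 and below every control mouse at ZT14. The difference between those 2 times was not tested.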

How the results depend on the processing

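For 43 named genes called at ZT18, 1011 of 1100 fits under the alternatives kept direction and call, 83 kept direction only and 6 turned direction. The last were all Ndufab1 on counts, at -0.13 (edgeR with TMM), -0.13 (RLE size factors), -0.11 (no filter on counts), -0.13 (DESeq2), -0.13 (only the 8 ZT18 libraries, edgeR) and -0.091 (limma on CPM). The 113 genes called lower became 40 at a mean of at least 5 TPM (fewer genes tested), 240 by edgeR with TMM or RLE, 237 by edgeR without a filter, 256 by DESeq2, 197 by edgeR on the 8 libraries alone and 186 by limma on CPM. The 5 called higher became 9 without a filter, 3 at 5 TPM, 10 by edgeR with TMM or RLE, 17 by edgeR without a filter, 12 by DESeq2, 8 with the mitochondrial share as a covariate, 2 at an adjusted p under 0.01, 8 by edgeR on the 8 libraries and 14 by limma on CPM. Against the other times, limma called 1 gene without a filter, Gm26937 at a mean of 0.0166 TPM, and 1 without replicate 4 in every group. EdgeR called 380, 284, 309, 271 and 308 genes at ZT2, ZT6, ZT10, ZT14 and ZT22. The microglial median was -2.56 at 5 TPM, -2.91 with a pseudocount of 0.1, -2.90 by edgeR with TMM, RLE or the 8 libraries and by DESeq2, -2.88 by edgeR without a filter and -2.91 by edgeR without replicate 4. Immediate early genes called lower numbered 1 by edgeR with TMM or RLE, DESeq2, limma on CPM and limma on the 8 libraries, 6 by edgeR without a filter, 5 by edgeR on the 8 libraries, and 10 and 12 by limma and edgeR without replicate 4. With 1 library left out, limma called 91 to 120 genes lower, 3 to 9 higher and 0 against the other times, 29 to 30 microglial genes (median -2.36 to -2.20) and 0 immediate early genes (median -1.03 to -0.64), while edgeR called 31 microglial genes (-2.94 to -2.72) and 0 to 1 immediate early genes (-1.08 to -0.70). The causes were not tested.

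Over all genes tested, the replicate numbers did not pair the diets at ZT18. The deviations of same-numbered mice correlated across these genes at 0.127, -0.093, 0.058 and 0.125. With the replicate block, limma called 123 lower, 6 higher, 0 against the other times, 30 microglial genes (median -2.28) and 7 immediate early genes (median -0.75), and edgeR 263, 14 and 1 with 12 immediate early genes. The 1 gene was Ccn1 (difference -1.20, edgeR adjusted p = 0.0171). The immediate early genes called under the block by limma were Arc (adjusted p = 0.0039), Egr2, Junb, Nr4a1, Btg2, Egr4 and Dusp1.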

Other observations

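Over all 12 groups, the deviations of 2 mice from their group means correlated at a median of 0.094 where both had number 1 (66 pairs), 0.022 for number 2, 0.025 for number 3 and 0.093 for number 4 (55 pairs), beside -0.019 for different numbers (759 pairs). These are correlations across genes, which are not independent replicates. Besides the immediate early list, the neuronal list was highest in number 4 in 7 of 11 groups with 4 libraries. Other numbers stood out in other lists. The blood list was highest in number 2 in 8 of the 11 groups and the astrocyte list in number 1 in 6. At the other times the immediate early mean ran from 4.13 to 4.69 in control mice with number 4 and from 3.06 to 4.98 in those with other numbers, and from 4.11 to 4.87 and 3.14 to 4.50 in PLX5622 mice.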
